A study of Mus musculus with 4 samples.

Results

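The genes described here are the 36 protein-coding mouse genes named Nduf followed by a, b, c, s or v and a number, out of 21827 protein-coding genes in the annotation (GENCODE vM21 basic, build mm10). They encode nuclear subunits of respiratory complex I, and the rule that picks them uses the name and no measured value. For each gene, the open regions that touch the 1 kb either side of any of its annotated transcription start sites (TSSs) were taken as its promoter regions, and every region was also assigned to the gene whose TSS lies nearest to the region's midpoint. Both rules together gave 137 regions with 4295 reads, out of 121574 regions with 2297892 reads in the whole library.

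Open chromatin was profiled by ATAC-seq, an assay in which a transposase inserts sequencing adapters where DNA is accessible, in dental mesenchyme of the incisors of untreated wild-type C57BL/6 mice at 4 weeks of age. The labels give no number of animals. The samples are 4 sequencing lanes under 1 library name, and the deposited tables hold 1 column for all of them, so there are no replicates and no test was made. Each read count below is followed, where it matters, by its exact 95% Poisson interval in brackets. Such an interval covers counting error only, because neither duplicate reads nor the spread between animals is known.

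Complex I oxidises NADH in the mitochondrial matrix, passes the electrons along a chain of iron-sulfur clusters to ubiquinone, and pumps protons across the inner mitochondrial membrane. Its core subunits carry out the reaction, and in mammals the nuclear genome encodes the core subunits of the matrix arm while the mitochondrial genome encodes those of the membrane arm. Accessory subunits surround the core and are needed for its assembly and stability. The nuclear genes lie scattered over the chromosomes, are used in nearly every cell type, and in mammals their promoters are known to be bound by factors such as NRF1, the ETS factor GABP and YY1.

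The labelled tissue was checked by promoter regions of marker genes, which 64.6% of all protein-coding genes had. Of the dental mesenchyme markers, 7 of 8 had a promoter region, led by Msx1 with 164 reads, and Barx1 had none. Their promoters are CpG-rich, with a median of 4.74 CpG per 100 bp against 2.94 over all genes. Such promoters are commonly open, so that count says little of the tissue. Beside genes of like CpG density, 5 of the 8 lay above the median. Barx1, Lhx6 (36 reads against 80) and Prrx1 (30 against 46) lay below theirs. All 4 odontoblast markers had a region, with 115 reads at Col1a2 and 9 at Dmp1. None of 4 leukocyte markers had a promoter region, while 3 of 4 endothelial markers had one (Kdr highest, with 54 reads), 3 of 4 dental epithelium markers (Krt14 highest, with 28) and 1 of 4 skeletal muscle markers (Ttn, with 4). Genes of like CpG density to each leukocyte marker had a median of 0 promoter reads, so the missing regions there say little. Away from promoters, the reads assigned by nearest TSS were 927 at Msx2, the highest of the dental mesenchyme markers, but also 1019 at the endothelial Cdh5 and 591 at the leukocyte gene Ptprc. How far other cell types contributed to the reads below was not tested. The depth of the library limits single regions: the median region held 7 reads, and 7101 regions (5.84%) held 0.

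Complex I subunit promoters were open almost throughout. A promoter region was listed for 35 of 36 subunit genes (97.2%), against 64.6% of all protein-coding genes and, averaged over the subunits, 91% of other genes of like promoter CpG density (within 10% of the subunit's own). The exception was Ndufa6. The 36 genes held a median of 87.5 promoter reads (quartiles 46.2 and 118, range 0 to 296), against 26 over all protein-coding genes. Among genes with a region, the medians were 88 reads for the subunits and 67 for all genes. Their 65 promoter regions together held 3380 reads, 0.147% of all reads in regions. Of these 65 regions, 29 held under 10 reads, where the median of all regions in the library was 7 reads.

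The 7 core subunits of the matrix arm all had open promoters. Ndufv2, which holds an iron-sulfur cluster beside the NADH-oxidising subunit, had the most reads of them, 191 (interval 165 to 220), in a single region at chr17:66101141-66102224. Ndufs8, which carries iron-sulfur clusters, had 126 reads (105 to 150). Ndufs7, which carries the last cluster before ubiquinone, had 104 reads (85 to 126). Ndufv1, the subunit that binds FMN and oxidises NADH, had 89 reads (71.5 to 110), and Ndufs1, the large iron-sulfur subunit at the tip of the arm, had 88 (70.6 to 108). Ndufs3, which joins the arm's modules, was lowest, with 35 reads (24.4 to 48.7). Neighbours from Ndufs8 down to Ndufs1 overlap in their intervals. The interval of Ndufv2 lies above theirs, and that of Ndufs3 lies below them.

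The accessory subunits of the matrix arm spread from 0 to 129 reads, with 8 of 9 having a region and a median of 66. Ndufa5 was highest, with 129 reads (108 to 153). Ndufa2 and Ndufs6, a zinc-binding subunit, each had 90 reads, Ndufv3 had 87, and Ndufs4, whose loss causes a Leigh-like disease in mice, had 66. Ndufa12 had 51 reads, Ndufa7 44 and Ndufa9, a subunit related to short-chain dehydrogenases, 43. Ndufa6, which binds the mitochondrial acyl carrier protein, had no promoter region.

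The accessory subunits of the membrane arm held both the highest and the lowest measured promoters, with a region at all 19 and a median of 67 reads. Ndufa11, a membrane-spanning subunit, had 296 reads (263 to 332), Ndufb5 had 262 (231 to 296) and Ndufa13, also known as GRIM19, had 206 (179 to 236). The intervals of Ndufa11 and Ndufb5 overlap, so their order is not resolved by the counts. Next came Ndufb4 with 143 reads, Ndufa3 with 116, the X-linked Ndufb11 with 101, Ndufa8 with 89, Ndufb6 with 88, Ndufa10 with 76, Ndufc1 with 67, Ndufb2 with 65, Ndufb7 with 63 and Ndufs5 with 61. Ndufb9, Ndufb10 and Ndufc2 had 47, 39 and 33 reads. At the low end were the X-linked Ndufa1 with 24 reads (15.4 to 35.7), Ndufb8 with 20 (12.2 to 30.9) and Ndufb3 with 13 (6.92 to 22.2). Those 3 intervals overlap one another, and none of them reaches 46.7 reads, the lower bound of Ndufs5. Ndufa4, first described as a complex I subunit and now placed in complex IV, had 176 reads (151 to 204).

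**Figure D1:**
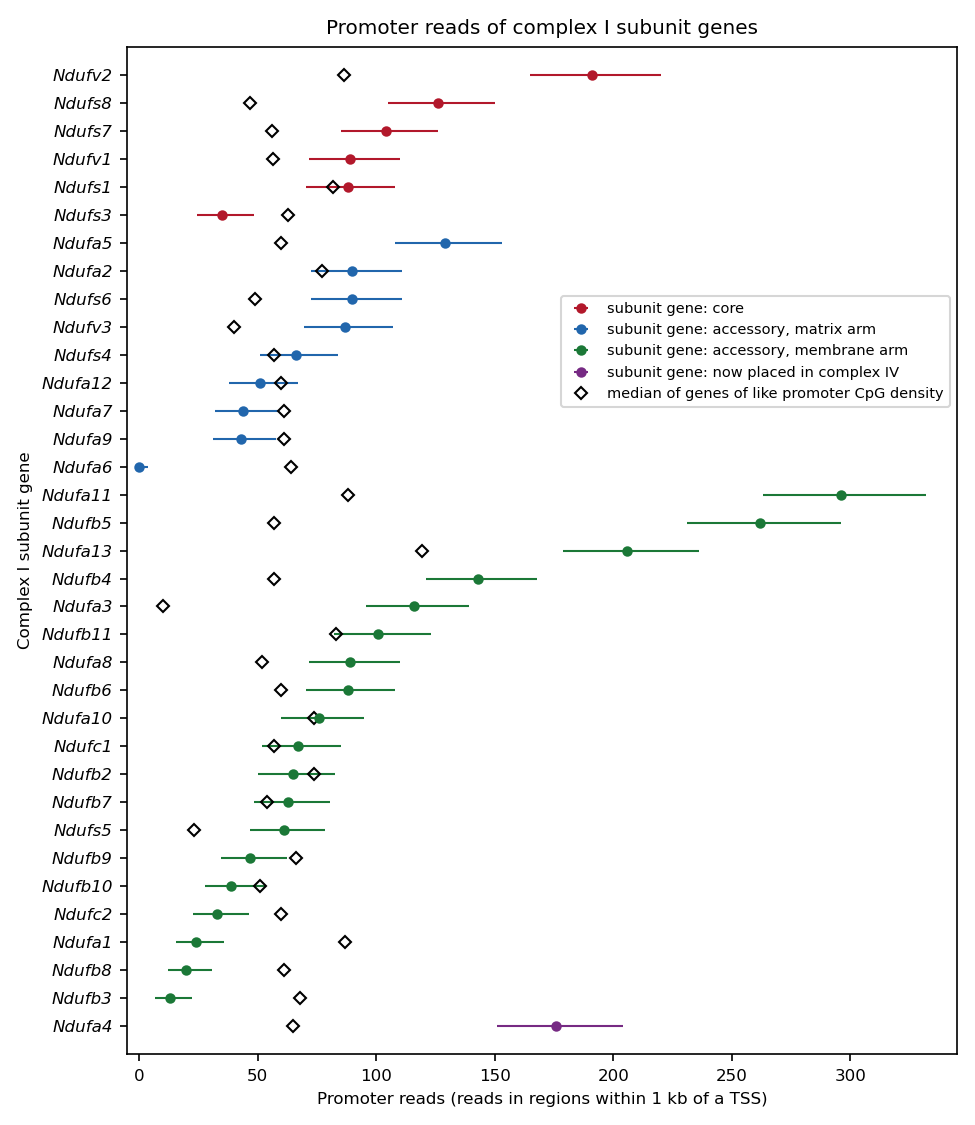
Promoter reads of 35 of the 36 complex I subunit genes (filled points, coloured by role) with exact 95% Poisson intervals as bars, beside the median of other genes of like promoter CpG density (open diamonds). Ndufa11 with 296 reads and Ndufb5 with 262 lie far to the right of their diamonds, while Ndufb3 with 13 and Ndufa6 with 0 lie to the left of theirs. Ndufa6 has no listed region and is drawn at 0.

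CpG-rich promoters are commonly open in many tissues, so each subunit gene was set beside all other protein-coding genes of like promoter CpG density, 680 to 2596 genes for a subunit. The subunit promoters had a median of 3.47 CpG per 100 bp (range 1.99 to 8.45), against 2.94 over all genes. Read by percentile among genes of like CpG density, the subunits had a median of 57.9. With every subunit set at once to its lower or its upper interval bound, the median was 48.7 or 67.3. That range is wider than the counting error of a median over separate counts. Of the 36, 24 lay above the median of their like-CpG genes, against 50.2% of all 13271 genes in the same range of CpG density. Counting error matters for many of them: the interval lay wholly above that median for 17 subunits, against a background of 41.1%, wholly below it for 9, against 39.8%, and spanned it for 10. The 9 include Ndufa6, which has no listed region and was counted as 0 reads. So the subunit promoters as a set sat near, and by their median somewhat above, the middle of promoters of like CpG density, with single genes far to either side.

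Among those farthest above were Ndufb5 at percentile 97.8 (262 reads, against a like-CpG median of 57), Ndufa11 at 94 (296 against 88), Ndufa3 at 94 (116 against 10) and Ndufa4 at 88.6 (176 against 65). Ndufa3 had the CpG-poorest promoter of the 36, with 1.99 CpG per 100 bp, and 11.6 times the reads of its like-CpG median, the highest such ratio. Farthest below were Ndufa6 at percentile 3.21, Ndufb3 at 12.4 (13 reads, against a like-CpG median of 68), Ndufa1 at 14.9 (24 against 87), Ndufb8 at 19.1 (20 against 61) and Ndufs3 at 29.4 (35 against 63). The rank of Ndufa6 counts its missing region as 0 reads, which were not measured. By role, 6 of 7 core genes were above their like-CpG median, with a median percentile of 75.3. The same count was 5 of 9 for accessory genes of the matrix arm (median percentile 56.1) and 12 of 19 for those of the membrane arm (56.3).

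**Figure D2:**
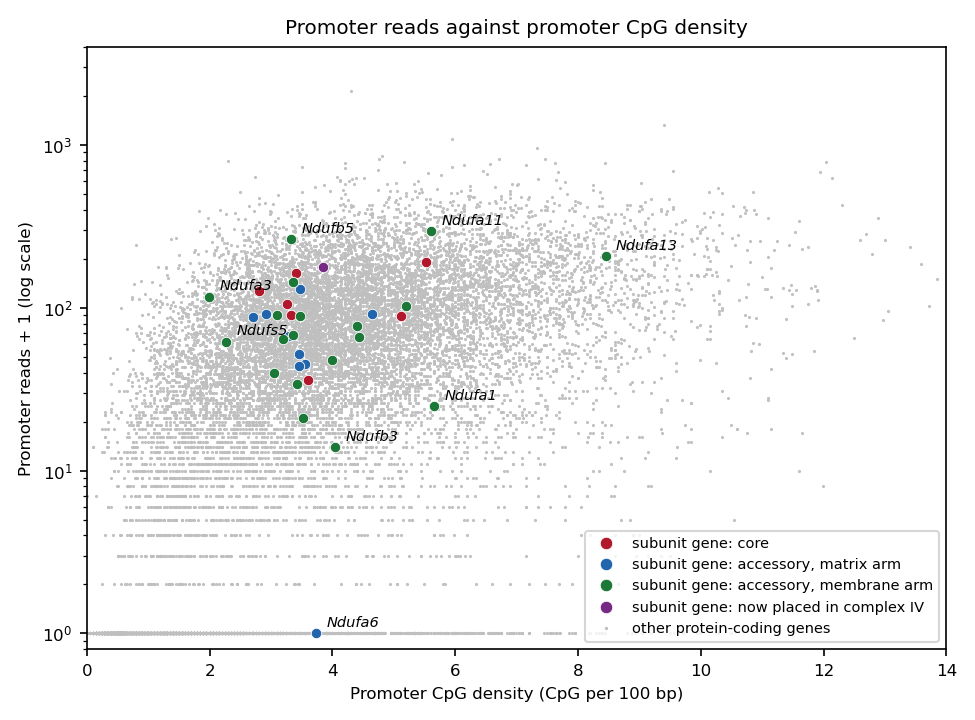
Promoter reads plus 1 (log axis) against promoter CpG density in CpG per 100 bp, for the 36 complex I subunit genes (coloured by role) over all other protein-coding genes (grey). Most subunits lie within the grey cloud at 2 to 6 CpG per 100 bp. Ndufa6, which has no listed region, lies on the floor of 0 reads.

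The upstream sequences of 4 subunit genes show the range behind these values. They were chosen after their values were seen, from the 9 whose 250 bases before the RefSeq start (GRCm38.p6) touch no annotated exon, for lying high or low in reads or CpG content. Ndufa3 (chr7:3617123-3617372, plus strand) has 7 CpG in these bases and 116 reads, and Ndufs8 (chr19:3912775-3913024, minus strand) has 9 CpG and 126 reads. Ndufv2 (chr17:66101560-66101809, minus strand) has 28 CpG and 191 reads, while Ndufb8 (chr19:44555443-44555692, minus strand) has 15 CpG and 20 reads. Each lies whole inside a listed region. Capitals mark exact matches to the consensus letters searched, on either strand: GGGCGG for SP and KLF factors, CCAAT for NF-Y and TATAAA for a TATA box. Sequences are given 5′ to 3′ on the gene's strand.
Ndufa3: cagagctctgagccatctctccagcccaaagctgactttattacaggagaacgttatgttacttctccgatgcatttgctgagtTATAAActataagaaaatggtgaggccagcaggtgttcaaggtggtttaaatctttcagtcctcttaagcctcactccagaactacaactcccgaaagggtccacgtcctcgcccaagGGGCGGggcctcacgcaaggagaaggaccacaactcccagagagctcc
Ndufs8: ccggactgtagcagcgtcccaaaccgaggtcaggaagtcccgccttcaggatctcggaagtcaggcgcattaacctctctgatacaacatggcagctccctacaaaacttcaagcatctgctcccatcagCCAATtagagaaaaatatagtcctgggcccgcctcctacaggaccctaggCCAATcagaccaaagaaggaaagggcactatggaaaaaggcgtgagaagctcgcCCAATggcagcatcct
Ndufv2: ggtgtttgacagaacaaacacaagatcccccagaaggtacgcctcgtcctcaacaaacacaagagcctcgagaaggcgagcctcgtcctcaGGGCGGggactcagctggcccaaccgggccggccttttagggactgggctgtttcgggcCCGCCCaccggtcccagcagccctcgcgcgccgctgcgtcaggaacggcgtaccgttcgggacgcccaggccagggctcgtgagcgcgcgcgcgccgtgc
Ndufb8: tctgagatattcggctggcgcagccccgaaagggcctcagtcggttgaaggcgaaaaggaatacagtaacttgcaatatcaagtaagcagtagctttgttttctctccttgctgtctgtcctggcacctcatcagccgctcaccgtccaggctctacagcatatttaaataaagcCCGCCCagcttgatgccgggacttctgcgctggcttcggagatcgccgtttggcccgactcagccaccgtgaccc
Ndufs8 has CCAAT at 3 places, at -120, -70 and -16 from the start. Ndufa3 has both a GGGCGG and a TATAAA, Ndufv2 has GGGCGG at 2 places, and Ndufb8 has it at 1.

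For this, 8 consensus motifs were searched, each as exact letters on either strand, in the RefSeq promoter sequences of 300 bases (250 before and 50 after a start). Of the 36 genes, 32 matched the table by symbol, with 34 sequences. The other 20109 sequences of protein-coding genes gave the background. AAGATGG, a YY1 consensus, was in 7 of 34 subunit sequences (20.6%), against 6.27% of the others and 7.11% of those of like CpG count. GCGCATGC, for NRF1, was in 3 (8.82%, against 3.64% and 5.85%), and TGACGTCA, for CREB, was in 3 (8.82%, against 2.3% and 3.44%). AAGGTCA, for the oestrogen-related receptors (ERR), was also in 3 (8.82%, against 3.96% and 2.77%). CCGGAAG, for ETS factors such as GABP, was in 4 (11.8%, against 11.9% and 18.7%). GGGCGG was in 15 (44.1%, against 47.7% and 67.6%), CCAAT in 10 (29.4%, against 37.8% and 39.9%) and TATAAA in 5 (14.7%, against 12.1% and 6.24%). The 5 sequences with TATAAA belong to 4 genes, because the same stretch of Ndufa7 lies in both of its overlapping sequences. Likewise, the 15 with GGGCGG belong to 14 genes, through Ndufa5. The TATAAA match nearest to a start lay at -52, in Ndufa7. Those of Ndufa7 and Ndufb7 were on the strand opposite to the gene. Whether any of these matches acts as a TATA box was not tested. With 3 to 5 sequences, such shares are coarse. YY1 stood farthest from its background in percentage points above both. The sequences of Ndufa4, Ndufb10, Ndufb5 and Ndufv1 held none of the 8, which makes 11.8% of subunit sequences, against 20.2% of the others. That share was not computed for sequences of like CpG count, so it is not read as a trait of the subunits. Subunit sequences had a median of 19.5 CpG, against 14 for the others.

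**Figure D3:**
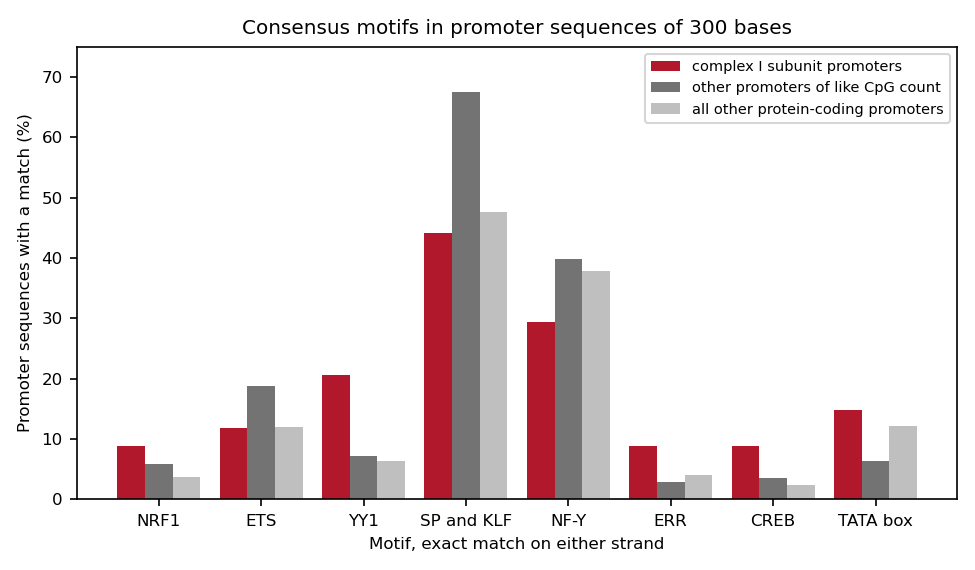
Share of promoter sequences of 300 bases with an exact match to each motif on either strand, for complex I subunit genes (red), other genes of like CpG count (dark grey) and all other protein-coding genes (light grey). The YY1 share is 20.6% for the subunits, against 7.11% and 6.27%.

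All 7 matches to AAGATGG lay on the gene's own strand, starting 23 to 39 bases after the RefSeq start, and in all 7 the ATG within the letters is the annotated start codon. They are shown because they share both letters and place. Capitals mark AAGATGG; each line is a stretch of at most 30 bases, 5′ to 3′, from GRCm38.p6.
Ndufa3: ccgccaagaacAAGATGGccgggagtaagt
Ndufa9: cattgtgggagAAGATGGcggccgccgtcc
Ndufb8: cggagaaggtgAAGATGGctgcc
Ndufc1: gcctgcggaacAAGATGGcgccgtccgtag
Ndufs4: ttgcctacaggAAGATGGcggcggtc
Ndufs6: gggtcaccggcAAGATGGcggcggtgct
Ndufs7: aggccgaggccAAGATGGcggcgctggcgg
The same letters on the gene's strand in the 50 bases after the start were found in 20.6% of subunit sequences, against 1.65% of other sequences and 2.5% of those of like CpG count. That strand and stretch are where all 7 subunit matches lie, so the subunit share could not fall while the others could. The wider search gave 20.6%, against 6.27% and 7.11%. An annotated start codon lay in the 50 bases after the start in 11 of 34 subunit sequences (32.4%), against 11.2% of the others. Where one did, AAGATGG held it in 7 of 11 subunit sequences (63.6%), against 8.85% of 2249 other sequences. This comparison is likewise framed on the place of the same 7 matches, so it describes them and adds no separate support. The 7 genes with the letters had a median of 67 promoter reads (20 to 116) and a median percentile of 56.3, and the 25 genes without them had 87 reads (0 to 296) and 66.5. So the letters did not go with more reads. A match is a description of the sequence and does not show binding.

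GCGCATGC lay before the start in Ndufa11, with 296 promoter reads, in Ndufa8, with 89, and in Ndufa6, with no listed region. These stretches are given 5′ to 3′ on the gene's strand, with the letters or their reverse complement in capitals, because the same letters occur at a promoter with many reads and at the one with no region.
Ndufa11: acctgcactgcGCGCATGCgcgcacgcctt
Ndufa8: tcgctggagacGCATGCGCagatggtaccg
Ndufa6: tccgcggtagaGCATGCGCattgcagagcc
They begin 60, 8 and 83 bases before the RefSeq start, and in Ndufa11 a second match on the other strand overlaps the first.

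Ndufa6 (chr15:82350140-82354322, minus strand) has 3 annotated TSSs and 3.73 CpG per 100 bp, and its like-CpG genes had a median of 64 reads. No region was listed between positions 82324580 and 82376239, a stretch of 51.7 kb that also holds every TSS of Pheta2 and Smdt1. Since only listed regions have values, the missing region is not a measured absence of reads. Of the 2460 genes of like CpG density, 156 (6.34%) also had no promoter region.

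Where a promoter region was listed, it lay on the start site. The region with the most reads covered a TSS in 33 of 35 subunit genes (94.3%), against 85.2% of all genes with a promoter region. Its midpoint lay at a median of -8 bp from the nearest TSS (range -624 to 293), and its median width was 590 bp, against 610 bp over all genes. It held over 90% of the gene's promoter reads in 33 subunits. The same share over all genes was not computed, so this count is not read as a trait of the subunits. The exceptions to covering a TSS were Ndufs3 and Ndufa13. At Ndufs3 the region with 34 reads began 39 bp downstream of the TSS, and the adjoining region over the TSS held 1 read. At Ndufa13 a region with 132 reads lay at -945 to -304 bp from the TSS, at chr8:69902862-69903502, and another with 67 reads lay 620 to 1129 bp downstream; both are nearer to the start of another gene, Yjefn3 for the first and Tssk6 for the second. Ndufa13's count of 206 reads therefore comes from regions that are assigned to its neighbours. Per kilobase of promoter region the subunits had a median of 111 reads, against 80 over all genes with a region.

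**Figure D4:**
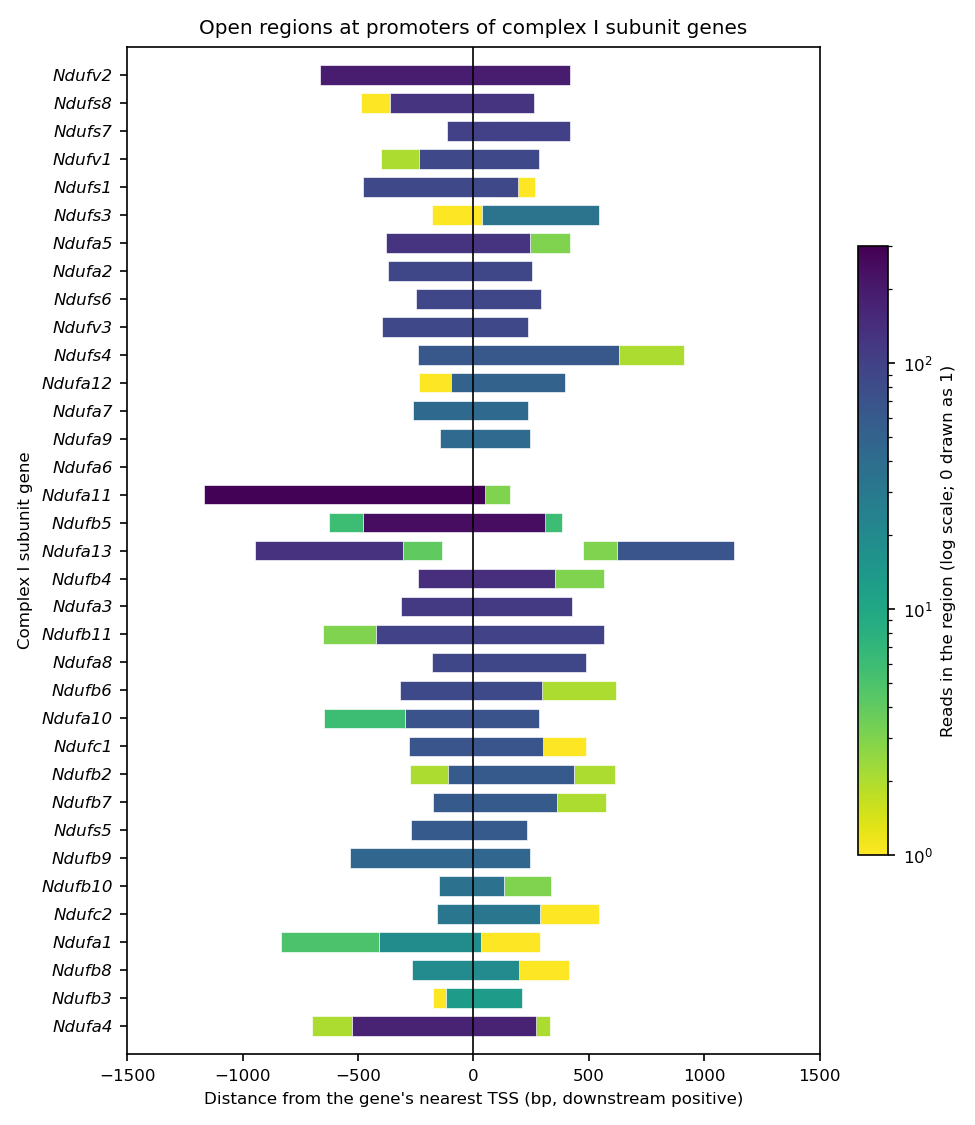
Extent of each promoter region of 35 of the 36 complex I subunit genes, in bp from the nearest TSS of the gene and with downstream to the right, coloured by reads on a log scale. Regions of a gene with several TSSs are each drawn from their own nearest TSS and can overlap. Nearly all dark bars cross 0; Ndufa13 has its bars on either side of 0, and Ndufa6 has none.

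Many subunit genes share their promoter with a neighbour that is transcribed the other way. The promoter window of 14 of 36 (38.9%) held a TSS of another protein-coding gene, against 11.8% of all genes and 16.6% of genes of like CpG density. Only starts of protein-coding transcripts were counted. In all 14 windows a TSS of another gene on the opposite strand was present, against 10.5% of all genes and 15.4% of genes of like CpG density. The closest pairs were Ndufb11 with Rbm10, an RNA-binding protein gene, and Ndufs1 with Eef1b2, a translation elongation factor gene, each with starts 3 bp apart. Ndufa7 and Rps28, a ribosomal protein gene, had starts 10 bp apart, Ndufb9 and Tatdn1 26 bp, and Ndufs6 and Mrpl36 29 bp. Ndufs6 and Ndufb5 were both paired with genes of mitochondrial ribosomal proteins, Mrpl36 and Mrpl47, which lies 76 bp away. The other pairs were Ndufa8 with Morn5 at 52 bp, Ndufb3 with Fam126b at 61, Ndufa1 with Rnf113a1 at 82, Ndufs3 with Kbtbd4 at 84, Ndufa11 with Vmac at 87, Ndufa2 with Ik at 99 and Ndufa5 with Asb15 at 131. Ndufa13 had Yjefn3 at 154 bp on its own strand besides Tssk6 on the other. Ndufa4 was not counted as sharing, although its promoter region with a midpoint 612 bp upstream lies in an intron of Phf14, a protein-coding gene.

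Reads at a shared promoter cannot be divided between the genes. By the nearest start, 17 of the 65 promoter regions were assigned to another gene, and Ndufa1, Ndufa2, Ndufa13 and Ndufb11 were left with no assigned reads, although their windows held 24, 90, 206 and 101. Ndufs6, Ndufb9 and Ndufa7 kept distal reads only, as their 90, 47 and 44 promoter reads went to Mrpl36, Tatdn1 and Rps28. At Ndufa11 the region with 293 of 296 reads went to Vmac. At Ndufs1 the region with 87 of 88 reads went to Eef1b2, and at Ndufs3 that with 34 of 35 to Kbtbd4. The 14 genes with a shared window had a median of 89.5 promoter reads and a median percentile of 57.9, against 88 reads and 61.9 for all 2568 genes with one. The 22 subunits with a window of their own had 71.5 reads and a median percentile of 61.4, against 19 reads and 48 for all 19259 such genes. Shared windows thus held subunits from both ends of the range, Ndufa11 and Ndufb5 with the most reads and Ndufb3 and Ndufa1 among those with the fewest.

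The subunit genes had few open regions away from promoters. Of the reads assigned to them, 72% (exact binomial interval 70.5 to 73.6) lay at promoters, against 50.5% over all genes. In regions away from any promoter they held a median of 0 reads, against 9 over all genes and 13.5 in genes of like CpG density. Of the 36, 13 (36.1%) had 10 or more such reads, against 49.4% of all genes and 55.6% of genes of like CpG density, and 18 (50%) had no such region, against 39.5% of all genes. The territory nearest to their TSSs was also smaller, with a median of 18.9 kb, against 47.3 kb over all genes and 44.4 kb in genes of like CpG density. How far that smaller territory goes with the fewer reads was not tested.

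Among those 13, Ndufb4 and Ndufa4 held the most distal reads, 245 and 217, more than at their promoters. Near Ndufb4 a cluster lay 30.6 to 33 kb upstream, with 91 reads (73.3 to 112) at chr16:37684739-37685338 and 69 (53.7 to 87.3) at chr16:37686654-37687345, both intergenic. The territory of Ndufa4 spans 1488 kb, and its distal regions lie far off, with 68 reads (52.8 to 86.2) at chr6:10758561-10759149, 1149 kb from the TSS, 43 reads at chr6:10690527-10691050 and 42 at chr6:11619651-11620047, 288 kb from it. Nearest-TSS assignment alone ties these regions to the gene. Ndufa10, a subunit related to nucleoside kinases, had 114 reads in 16 regions, of which 36 lay in an intron of its own at chr1:92454646-92455126. Ndufv2 had 35 reads in an intron at chr17:66092575-66092943, 8.74 kb from its start.

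The other distal reads were fewer. Ndufs3 had 57, with 52 (38.8 to 68.2) at chr2:90917281-90918168 in an exon of the pseudogene Gm17661, 12.9 kb from its TSS, which is more than the 35 at its own promoter. The adjoining region, with 5 reads, lies in an intron of Ptpmt1. That gene is annotated here as a processed transcript, so its starts did not count in the nearest-TSS assignment. Only that assignment ties both regions to Ndufs3. Ndufb9 had 57 reads, all in introns of the neighbouring gene Mtss1. Ndufb6 had 43, with 30 of them at chr4:40301101-40301578, 21.9 kb upstream, and Ndufb2 had 31 in the neighbouring gene Braf. Ndufa8 had 29 distal reads, Ndufv1 28 (in 1 intergenic region at chr19:4019159-4019608), Ndufs4 22, Ndufs6 11 and Ndufs7 10.

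Other genes of the respiratory chain were read in the same way. Promoters of the complex I assembly factors were open in 16 of 16 found (of 17 listed), with a median of 99 reads and a median percentile of 63.2; Tmem126b was highest with 246 reads and Ndufaf1 lowest with 11. Complex II had 4 of 4 (median 84 reads, percentile 63.1; Sdhb 111, Sdhd 45), and complex III had 9 of 9 (69 reads, percentile 62.6; Uqcrh 165, Uqcr11 30). Complex IV had 10 of 10, with a median of 55.5 reads and a percentile of 40.6, Cox7a2 highest with 105 and Cox7b lowest with 14. Complex V, the ATP synthase, had 15 of 16, with a median of 63.5 reads and a percentile of 54.7. Atp5j was highest there with 308 reads, and Atp5g1 had no region. The complex I subunits had a higher median of reads, 87.5, than any of complexes II to V, while their median percentile of 57.9 lay between those of complex V and complex III.

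The forms of complex IV subunits used in muscle, lung or testis had a promoter region in 3 of 7, against 64.6% of all genes. Their median was 0 reads and their median percentile 32, with Cox6b2 highest at 168 reads. These promoters are CpG-poor, with a median of 1.8 CpG per 100 bp, and 3 of 7 lay above their like-CpG median. Genes of like CpG density to Cox6a2, Cox8b and Cox7b2 also had a median of 0 reads, and those to Cox8c 7.5. The missing regions of these forms therefore say little. Genes of regulators of mitochondrial gene expression had a promoter region in 10 of 10, with a median of 120 reads and a percentile of 79.9. Gabpa was highest with 308 and Pprc1 lowest with 73. Some genes with an Nduf name fall outside the rule. Ndufab1, the acyl carrier protein that is a complex I subunit, had 98 promoter reads (79.6 to 119) and a percentile of 67.1, and Ndufb1-ps, annotated as a non-coding RNA, had 105 (85.9 to 127). Ndufa4l2, a hypoxia-induced relative of Ndufa4, had no promoter region, as did the pseudogenes Ndufa11b, Ndufab1-ps and Ndufb4c; the pseudogene Ndufs6b had a region with 4 reads.

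**Figure D5:**
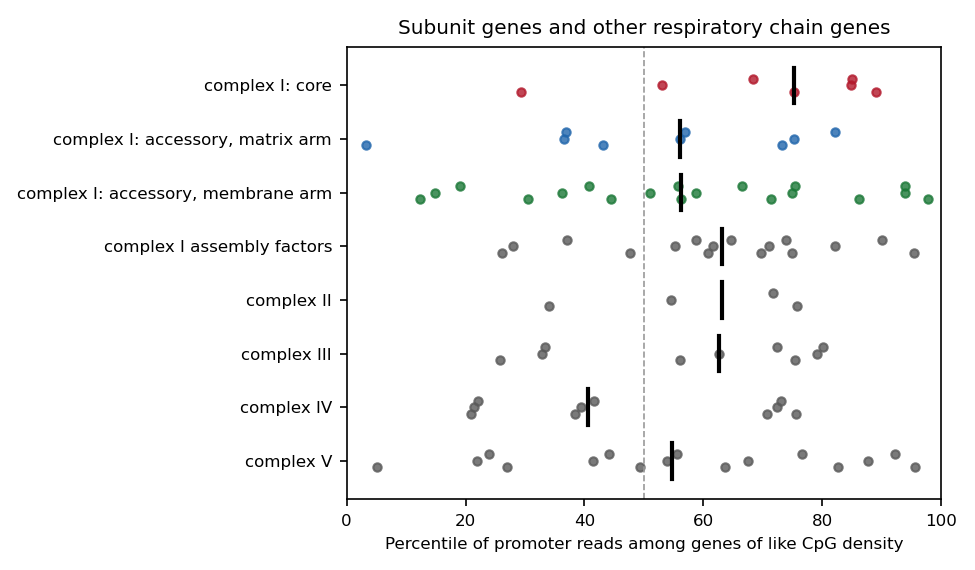
Percentile of promoter reads among genes of like promoter CpG density, 1 point a gene, for complex I subunits by role (coloured) and for assembly factors and the other respiratory complexes (grey). Thick bars are medians and the dashed line is the 50th percentile. The medians run from 40.6 for complex IV to 75.3 for the complex I core, with wide overlap between all rows.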

How the data were processed

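ATAC-seq of 1 library, sequenced on 4 lanes, was analysed. Per the labels' protocols, BWA-MEM aligned the paired reads to mm10, MACS2 called the peaks and HOMER annotated them. STAR 2.6.1d and Partek stand in the submitters' processing notes without a role. The libraries behind the region list, and whether a read is a fragment or a fragment end, are not stated in the sources used here. The deposited values of the main table are CPM with an offset of 1 read, judged from the values: 1 read is worth 0.0484 CPM, and dividing by the column minimum and subtracting 1 gave whole reads (within 0.01 read) for 99.9% of regions, all but 82. A shorter deposited table of 16382 regions holds estimated counts that differ from these by at most 0.0011 read. Of the value columns, 1 belongs to no sample described here and was not used.

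Promoter reads are the sum over regions that touch the 1 kb either side of any TSS of a protein-coding transcript. Percentiles are mid-ranks among all other protein-coding genes whose promoter CpG density lies within 10%, genes with no region counting as 0 reads; the ranking step was checked on simulated data. Promoter sequences are from RefSeq (GRCm38.p6). Regions matching the mitochondrial genome were found with BLAST+ 2.17.0; other steps used Python 3.11.15, pandas 2.3.3 and scipy 1.17.1. The genes, lists and comparisons were chosen with earlier results of these data known. Genes described in full are the 5 with the most and the 5 with the fewest promoter reads, the 5 farthest above and below genes of like CpG density, any without a region, those with 10 or more distal reads and all core subunits; of other lists, the highest and the lowest. Values of some single genes are not reported here, though counts and medians include them. Sequences shown in full were picked after their values were seen.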

Additional observations from a re-analysis of the deposited data

How the results depend on the processing

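With no matching on CpG density, the median percentile of the subunit promoters was 74.3, against 57.9 among genes of like CpG density; that setting by construction adds genes of unlike CpG density, where the subunits had a median of 3.47 CpG per 100 bp and all genes 2.94. Over all 12 alternatives it ran from 56.7 to 74.3, and in the 11 that keep the matching it ran from 56.7 to 63.9. The count of subunits with a promoter region was 35 of 36 with windows of 500 bp or 2 kb, with regions under 10 reads left out and with 1 TSS a gene. Subunits above their like-CpG median numbered 23 or 24 in the alternatives that match on CpG density and 32 without the match. The median of promoter reads was 71.5 with genes sharing a window left out, and 86.5 to 87.5 in the other alternatives. The share of assigned reads at promoters was 71.7% to 72%. Leaving out each lane was not run, since the lanes share 1 column. No paired analysis was possible because there is 1 group and 1 library. Depth limits the low end: 29 of 65 promoter regions held under 10 reads, and a region not listed has no value.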
